A study of Mus musculus with 9 samples.

Results

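The cone phototransduction genes are the 10 genes Opn1sw, Opn1mw, Arr3, Gnat2, Gnb3, Gngt2, Pde6c, Pde6h, Cnga3 and Cngb3. They were taken by symbol from a table of RNAseq read counts that lists 48587 gene names of the mouse retina, and all 10 were found. Retinas came from C57BL/6J mice, 12 weeks old, and each of the 9 samples was a pool of 6 retinas, so that n counts pools and not mice. In the RVO group (retinal vein occlusion, n = 3), all veins of an eye were closed by laser after intraperitoneal eosin Y, a photosensitizer that enhances the laser effect. In the Control group (n = 3), the fellow eyes received the same number of laser applications between the large vessels, so they share the laser injury and the eosin Y with RVO eyes. Both were taken at day 2. Eyes of the Untreated group (n = 3) received no laser. Replicates were separate pools, and the sources used here do not say which mice contributed to which pool.

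Cones are the photoreceptors of daylight and colour vision. When a cone opsin absorbs light it activates cone transducin, a G protein of an alpha, a beta and a gamma subunit, which relieves cone phosphodiesterase of its inhibitory subunit; the enzyme then hydrolyses cGMP, and the cGMP-gated cation channel of the outer segment closes. Cone arrestin binds the activated opsin and ends the signal. Rods, which outnumber cones by far in the mouse retina, use a parallel cascade that is built mostly from separate genes. In pools of whole retina, fewer cones and less RNA per cone cannot be told apart.

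Total counts per sample were 12377572 to 15245869 in Untreated eyes, 18897218 to 23419497 in Control eyes and 21022997 to 28993921 in RVO eyes. Values are given as normalised CPM, in which each count was divided by the total of its sample in units of 1000000 after scaling by edgeR's TMM factors, and all 10 genes passed edgeR's filter on low counts in every comparison. A gene was called changed where edgeR's quasi-likelihood test gave an adjusted p (Benjamini-Hochberg) under 0.01. With TMM scaling, log2 fold changes of all genes had a median near 0. Scaling by total counts alone moved that median up by 0.21 in RVO versus Untreated and by 0.17 in Control versus Untreated, and the share of all changed genes that were higher went from 52.7% to 68.5% and from 51.9% to 70.4%. With trends of GC content and gene length removed, that share was 43.7% and 36.2%. No cone gene turned its direction under any scaling tried. The RVO samples differed among themselves: RVO replicate 2 had the highest value of its group for 8 of the 10 genes, and RVO replicate 3 the lowest for 9.

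The 10 genes lie on 7 chromosomes in GRCm38. Opn1sw (chr6:29376671-29388468, minus strand), Pde6h (chr6:136923832-136968865, plus strand) and Gnb3 (chr6:124834240-124840275, minus strand) share chromosome 6, and Opn1mw (chrX:74127464-74150760) and Arr3 (chrX:100605497-100618493), both on the plus strand, share the X chromosome. The other genes are on the plus strand of their chromosomes: Gnat2 at chr3:108092789-108101432, Cngb3 at chr4:19280850-19510623, Cnga3 at chr1:37214434-37263384, Gngt2 at chr11:95837216-95845734 and Pde6c at chr19:38132781-38183958. The 250 bases before the RefSeq start (GRCm38.p6) are shown for 5 genes that went different ways in the data below, the first 4 of which fell after laser treatment while Pde6h did not; they are read 5′ to 3′ on the strand of the gene, at chr6:29380514-29380763 (minus) for Opn1sw, chrX:74127216-74127465 (plus) for Opn1mw, chrX:100605247-100605496 (plus) for Arr3, chr3:108092816-108093065 (plus) for Gnat2 and chr6:136954273-136954522 (plus) for Pde6h. Capitals mark matches to TAATCC, the core motif of the photoreceptor transcription factor CRX, or to its shorter form TAATC, on either strand.
Opn1sw: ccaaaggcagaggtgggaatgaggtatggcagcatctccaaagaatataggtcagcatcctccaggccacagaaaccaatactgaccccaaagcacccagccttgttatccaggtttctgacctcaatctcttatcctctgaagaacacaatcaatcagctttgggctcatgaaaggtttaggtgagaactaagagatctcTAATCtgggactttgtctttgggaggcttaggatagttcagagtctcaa
Opn1mw: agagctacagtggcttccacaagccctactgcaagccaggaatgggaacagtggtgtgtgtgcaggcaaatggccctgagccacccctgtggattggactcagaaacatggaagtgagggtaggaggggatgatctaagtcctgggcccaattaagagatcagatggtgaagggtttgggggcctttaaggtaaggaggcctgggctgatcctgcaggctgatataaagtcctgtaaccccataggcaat
Arr3: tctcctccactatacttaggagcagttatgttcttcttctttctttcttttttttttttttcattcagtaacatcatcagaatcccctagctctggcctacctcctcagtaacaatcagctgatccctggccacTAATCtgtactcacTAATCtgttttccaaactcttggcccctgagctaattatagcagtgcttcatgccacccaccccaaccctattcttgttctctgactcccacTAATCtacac
Gnat2: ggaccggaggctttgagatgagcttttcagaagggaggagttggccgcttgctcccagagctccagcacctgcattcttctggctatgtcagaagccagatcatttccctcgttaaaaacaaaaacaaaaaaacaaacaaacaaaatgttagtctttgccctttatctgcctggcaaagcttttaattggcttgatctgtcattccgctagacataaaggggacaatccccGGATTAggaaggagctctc
Pde6h: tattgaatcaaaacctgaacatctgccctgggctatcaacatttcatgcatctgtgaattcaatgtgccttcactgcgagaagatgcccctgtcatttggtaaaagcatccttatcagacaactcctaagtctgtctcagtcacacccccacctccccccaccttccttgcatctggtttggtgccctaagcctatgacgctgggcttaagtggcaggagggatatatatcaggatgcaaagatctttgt
The longer motif TAATCC was found in 1 of the 6 cone genes with an entry in the RefSeq promoter table (16.7%), Gnat2, in a window of 300 bases that ends 50 bases after the start; it begins at base -19, where it is read as its reverse complement. It was held by 8.14% of all 27025 genes with an entry, and 4 of 6 rod counterparts did (66.7%). The shorter TAATC, which every TAATCC contains and which was chosen after the sequences were seen, was found in 3 of the 6 cone genes (50.0%) against 24.6% of all genes: at base -49 in Opn1sw, at -116, -102 and -10 in Arr3 and at -18 in Gnat2. Neither form is in the windows of Opn1mw and Pde6h. These matches describe letters in a short window and not binding.

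The cone opsins are the light sensors of the cascade, and both fell after laser treatment. Opn1sw encodes the short-wavelength opsin. It was measured at 535.3, 545.1 and 582.4 normalised CPM in Untreated eyes, 415.7, 315.7 and 437.4 in Control eyes and 128.3, 216.5 and 90.89 in RVO eyes (replicates 1 to 3). The 3 groups did not overlap. Compared to Untreated eyes, Opn1sw was 3.74-fold lower in RVO (log2 fold change -1.90, SE 0.27, edgeR adjusted p = 0.000447) and 1.41-fold lower in Control eyes (-0.49, SE 0.096, edgeR adjusted p = 0.000626). The latter call was lost with scaling by total counts (edgeR adjusted p = 0.0109) and when all 9 samples were fitted together (edgeR adjusted p = 0.109). Between RVO and Control eyes its log2 fold change was -1.42 (SE 0.29), with an edgeR adjusted p of 0.0143.

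Opn1mw, the medium-wavelength opsin, had 214.4, 188.7 and 203.4 normalised CPM in Untreated, 123.2, 114.0 and 128.9 in Control and 70.8, 95.69 and 58.98 in RVO eyes. Again every Control value lay between the Untreated and the RVO values. It was 2.63-fold lower in RVO (log2 fold change -1.40, SE 0.16, edgeR adjusted p = 0.000158) and 1.64-fold lower in Control eyes (-0.71, SE 0.063, edgeR adjusted p = 1.17e-06) than in Untreated eyes. Its log2 fold change in RVO versus Control was -0.70 (SE 0.16, edgeR adjusted p = 0.0179).

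The opsins differed from each other in the RVO samples. Counts of Opn1sw per count of Opn1mw were 2.5, 2.89 and 2.86 in Untreated, 3.38, 2.77 and 3.39 in Control and 1.81, 2.26 and 1.54 in RVO eyes. All RVO ratios were below those of the other groups, whereas Control and Untreated ratios overlapped. The mean log2 ratio differed by -0.57 (SE 0.17) between RVO and Untreated and by -0.78 (SE 0.19) between RVO and Control eyes, each with a two-sided exact permutation p of 0.1, the smallest that 3 against 3 samples allow. Such a ratio within a sample does not depend on the scaling of the libraries. It rests, however, on counts not corrected for GC content and gene length. With these trends removed, Opn1sw and Opn1mw had log2 fold changes of -1.999 and -1.81 in RVO versus Untreated. These were closer together than the -1.902 and -1.397 of the main fit. The corrected values were -0.525 and -0.988 in Control versus Untreated and -1.45 and -0.778 in RVO versus Control.

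Arr3, cone arrestin, was among the genes with the largest decrease. Its values were 252.4, 253.9 and 256.1 normalised CPM in Untreated, 166.1, 102.8 and 186.3 in Control and 48.54, 81.49 and 40.32 in RVO eyes. Untreated pools were nearly equal while the laser-treated pools were spread, with Control replicate 2 closest to the RVO range. Arr3 was 4.38-fold lower in RVO (log2 fold change -2.13, SE 0.23, edgeR adjusted p = 0.000117) and 1.65-fold lower in Control (-0.73, SE 0.15, edgeR adjusted p = 0.000912) than in Untreated eyes, the second of which was above the threshold in a fit of all 9 samples (edgeR adjusted p = 0.0291). Compared to Control, RVO eyes had -1.42 (SE 0.30, edgeR adjusted p = 0.0149).

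**Figure D1:**
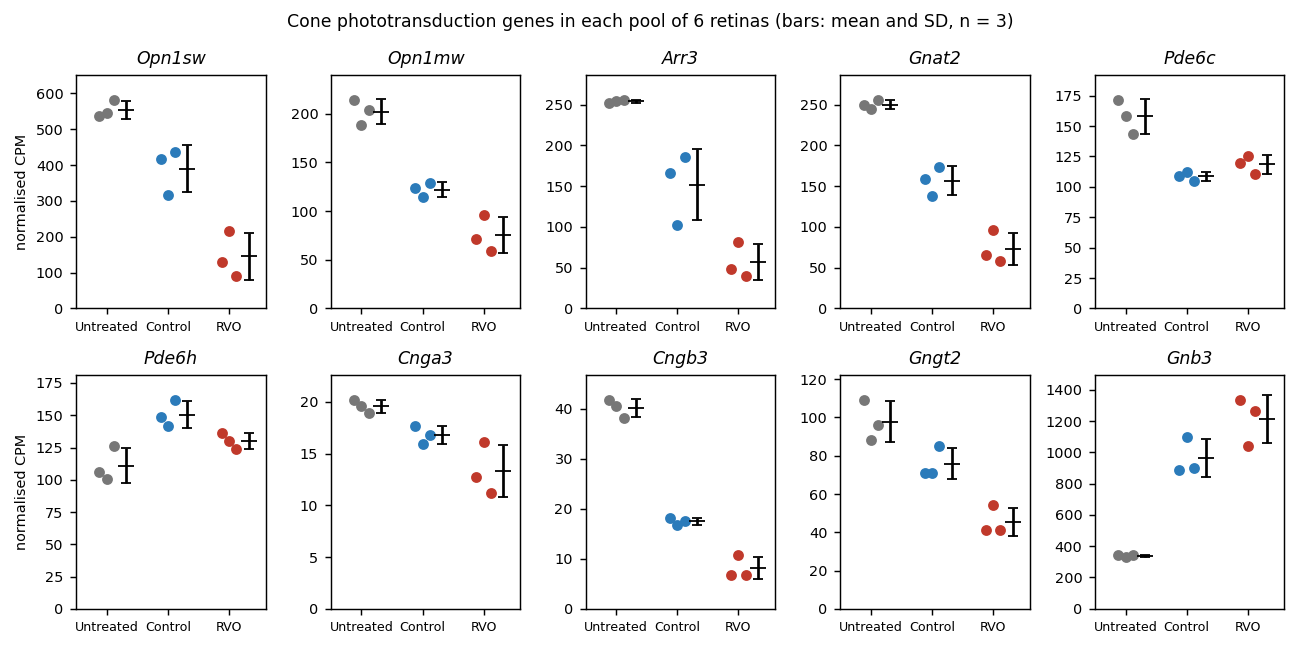
Normalised CPM (y axis, linear and starting at 0 in each panel) of the 10 cone genes in each pool of 6 retinas, by group; points are pools, bars are mean and SD (n = 3). For Opn1sw, Opn1mw, Arr3, Gnat2, Cngb3 and Gngt2 the Control points lie between the Untreated and the RVO points, whereas Gnb3 goes from a mean of 339 in Untreated to 962 in Control and 1215 in RVO eyes.

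The 3 subunits of cone transducin went in different directions. Gnat2, the alpha subunit that activates the phosphodiesterase, had 249.4, 244.5 and 256.1 normalised CPM in Untreated, 158.7, 137.9 and 173.4 in Control and 65.67, 95.69 and 58.67 in RVO eyes. The groups were separate, as for the opsins. Gnat2 was 3.34-fold lower in RVO (log2 fold change -1.74, SE 0.16, edgeR adjusted p = 6.55e-05) and 1.58-fold lower in Control (-0.66, SE 0.072, edgeR adjusted p = 5.93e-06) than in Untreated eyes. Against Control eyes, RVO eyes had a log2 fold change of -1.09 (SE 0.18, edgeR adjusted p = 0.0103).

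Gngt2, the gamma subunit, also fell. It had 109.2, 88.06 and 96.08 normalised CPM in Untreated, 71.21, 71.06 and 85.03 in Control and 41.11, 54.03 and 40.93 in RVO eyes. The highest Control value was just under the lowest Untreated value. Gngt2 was 2.11-fold lower in RVO (log2 fold change -1.08, SE 0.13, edgeR adjusted p = 0.000204) and 1.27-fold lower in Control (-0.35, SE 0.086, edgeR adjusted p = 0.00331) than in Untreated eyes. The call in Control eyes was lost without Control replicate 1, Control replicate 2 or Untreated replicate 1 (edgeR adjusted p = 0.0125, 0.0129 and 0.015) and with scaling by total counts or all 9 samples in a joint fit (edgeR adjusted p = 0.0805 and 0.0302). With GC content and length trends removed, the decrease of Gngt2 was larger, with log2 fold changes of -1.58 in RVO and -0.72 in Control versus Untreated, beside -1.71 and -0.59 for Gnat2. Between RVO and Control eyes the log2 fold change of Gngt2 was -0.74 (SE 0.13, edgeR adjusted p = 0.0109).

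Gnb3, the beta subunit, rose. Its values were 341.4, 332.1 and 342.2 normalised CPM in Untreated, 884.3, 1101 and 899.3 in Control and 1335, 1043 and 1267 in RVO eyes. All laser-treated pools were far above the Untreated pools, and RVO replicate 2 was within the Control range. Gnb3 was 3.67-fold higher in RVO (log2 fold change 1.88, SE 0.10, edgeR adjusted p = 6.11e-06) and 2.88-fold higher in Control (1.53, SE 0.084, edgeR adjusted p = 4.8e-08) than in Untreated eyes. With GC content and length trends removed, these log2 fold changes were 1.24 and 0.95. The difference between RVO and Control eyes was 0.34 (SE 0.12, edgeR adjusted p = 0.0696).

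Gnb3 is known to be used by ON bipolar cells as well as cones. Of 12 bipolar cell markers, 0 rose and 10 fell in RVO versus Untreated (median log2 fold change -1.67), and 2 rose and 5 fell in Control versus Untreated (median -0.16). Over all genes tested, 27.4% rose and 24.6% fell in RVO and 27.2% rose and 25.2% fell in Control versus Untreated. The list is of bipolar cells in general and not of ON bipolar cells alone. In Control versus Untreated, Nyx (0.56) and Pcp2 (0.28) rose, Prkca, Cabp5, Isl1, Scgn and Vsx1 fell, and Grm6, Trpm1 and Gpr179 were among those not called. The summed level of the 12 markers was 1674 to 1772 normalised CPM in Untreated, 1345 to 1448 in Control and 404.5 to 903.2 in RVO eyes, with the highest RVO value in replicate 2. Within that sum, the mean of Prkca alone was 440.3, 260.6 and 155.9 in the same order. Against Control eyes, RVO eyes had 1 of these markers lower at 0.01 and 11 lower at 0.05 (median -1.56). The shares of all genes lower there were 0.634% at 0.01 and 17.1% at 0.05. Which cells the higher counts of Gnb3 came from was not tested.

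Cone phosphodiesterase is made of the catalytic subunit Pde6c and the inhibitory subunit Pde6h. Pde6c had 171.8, 158.4 and 143.6 normalised CPM in Untreated, 109.2, 112.0 and 104.9 in Control and 119.8, 125.7 and 110.4 in RVO eyes. Both laser-treated groups were below the Untreated group and overlapped with each other. Pde6c was 1.43-fold lower in Control (log2 fold change -0.52, SE 0.066, edgeR adjusted p = 1.9e-05) and 1.30-fold lower in RVO (-0.38, SE 0.087, edgeR adjusted p = 0.00506) than in Untreated eyes. The call in RVO eyes was lost with scaling by total counts (log2 fold change -0.17, edgeR adjusted p = 0.0966) and without RVO replicate 1, RVO replicate 3, Untreated replicate 1 or Untreated replicate 2 (edgeR adjusted p = 0.0111, 0.0276, 0.0213 and 0.0218). RVO and Control eyes differed by 0.13 (SE 0.070, edgeR adjusted p = 0.184).

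Pde6h had 106.3, 100.5 and 126.0 normalised CPM in Untreated, 148.3, 141.5 and 161.9 in Control and 136.5, 130.3 and 123.8 in RVO eyes. Control values were the highest, and the lowest RVO value was within the Untreated range. It rose 1.37-fold in Control versus Untreated eyes (log2 fold change 0.46, SE 0.080, edgeR adjusted p = 0.000269). In RVO versus Untreated its log2 fold change was 0.26 (SE 0.094, edgeR adjusted p = 0.0365), which passed the threshold with scaling by total counts (0.47, edgeR adjusted p = 0.00331), without a filter on low counts (0.32, adjusted p = 0.00985) and with GC content and length trends removed (0.47, adjusted p = 0.00528). With any sample left out, Pde6h was not called in RVO versus Untreated. The edgeR adjusted p was then between 0.0102 (without Untreated replicate 3) and 0.164 (without Untreated replicate 2). Against Control eyes, RVO eyes were at -0.21 (SE 0.074, edgeR adjusted p = 0.0635) with all samples.

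The cGMP-gated channel of cones has the subunits Cnga3 and Cngb3. Cngb3, the modulatory subunit, had 41.72, 40.51 and 38.18 normalised CPM in Untreated, 18.20, 16.79 and 17.47 in Control and 6.825, 10.75 and 6.822 in RVO eyes. These groups were widely separated, with Control values far below the Untreated ones. Cngb3 was 4.84-fold lower in RVO (log2 fold change -2.27, SE 0.18, edgeR adjusted p = 3.06e-05) and 2.26-fold lower in Control (-1.18, SE 0.076, edgeR adjusted p = 1.55e-07) than in Untreated eyes. With GC content and length trends removed, its log2 fold changes were -1.80 and -0.78. Its log2 fold change in RVO versus Control was -1.11 (SE 0.18, edgeR adjusted p = 0.0105).

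Cnga3, the subunit that forms the channel pore, had 20.18, 19.63 and 18.87 normalised CPM in Untreated, 17.61, 15.88 and 16.80 in Control and 12.72, 16.11 and 11.14 in RVO eyes. The Untreated values were all above the others, by small distances, and RVO replicate 2 was within the Control range. Its log2 fold changes of -0.52 (SE 0.14, edgeR adjusted p = 0.0124) in RVO and -0.20 (SE 0.085, edgeR adjusted p = 0.0518) in Control versus Untreated eyes were not past the threshold. Without RVO replicate 2, Cnga3 was called lower in RVO versus Untreated (log2 fold change -0.66, edgeR adjusted p = 0.000154). It was also called there with DESeq2 (adjusted p = 0.00606), in a joint fit of all 9 samples (0.00297), with the replicate number as a block (0.00978) and with GC content and length trends removed (0.00183), and the last also called it in Control versus Untreated (log2 fold change -0.40, adjusted p = 0.00157). RVO versus Control gave -0.33 (SE 0.14, edgeR adjusted p = 0.108). Scaling by total counts made the decreases of Cnga3 smaller. Its log2 fold change was then -0.31 in RVO versus Untreated (edgeR adjusted p = 0.0778) and -0.029 in Control versus Untreated (edgeR adjusted p = 0.782).

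In RVO versus Untreated, 7 of the 10 genes fell (Opn1sw, Opn1mw, Arr3, Gnat2, Gngt2, Pde6c and Cngb3), where 24.6% of the 16380 genes tested fell, and 1 rose (Gnb3), where 27.4% rose. Groups did not overlap for 8 lower genes, the same 7 and Cnga3, and for 1 higher gene; the shares over all genes were 37.5% and 35.9%. In Control versus Untreated the same 7 genes fell and 2 rose (Pde6h and Gnb3), beside 25.2% and 27.2% of 16066 genes tested. Here 8 genes were lower and 2 higher without overlap, beside 35.4% and 34.6% of all genes. Both comparisons share the Untreated samples. The median log2 fold change of the 10 genes was -1.24 in RVO and -0.51 in Control versus Untreated, where that of all genes tested was 0.01 in each.

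In RVO versus Control, 0 of the 10 genes passed the threshold of 0.01 in edgeR, although 8 had an unadjusted p under 0.05. Of the 16874 genes tested, edgeR called 2.7% higher and 0.634% lower. DESeq2 called 6 of the 10 genes, beside 4043 of all 29736 genes it tested, 2162 of them lower. At an adjusted p under 0.05, 6 cone genes were lower (Opn1sw, Opn1mw, Arr3, Gnat2, Gngt2 and Cngb3) and 0 higher, beside 17.1% and 17.5% of all genes. Groups did not overlap for 7 lower genes, these 6 and Pde6h, and for 0 higher genes, beside 25.8% and 26.7%. Without RVO replicate 2, 8 cone genes were called at 0.01, 7 lower (the 6 above and Cnga3) and Gnb3 higher, with log2 fold changes of -1.84 for Opn1sw, -1.79 for Arr3 and -1.37 for Cngb3. That fit called 6257 of all 17199 genes tested, 3315 lower and 2942 higher. At 0.05, the count of 6 cone genes went to 1 without Control replicate 1 and to 0 without Control replicate 3 or RVO replicate 3. It was 6 with the replicate number as a block, 6 without RVO replicate 1 and 7 without Control replicate 2. Over all genes, 0 were called lower at 0.01 with the replicate number as a block. The same held without RVO replicate 1, RVO replicate 3, Control replicate 1, Control replicate 2 or Control replicate 3. The calls of lower genes at 0.01 in the main fit of RVO versus Control given here were thus lost in each of these. The median log2 fold change of the 10 genes was -0.72, beside 0.02 for all genes.

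**Figure D2:**
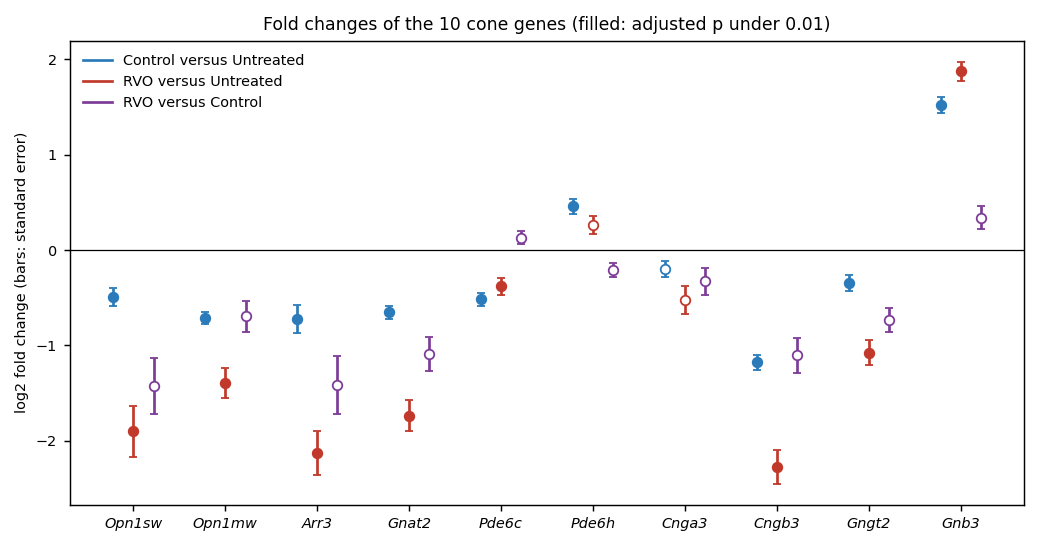
Log2 fold change with its standard error (y axis) of each cone gene (x axis) in Control versus Untreated, RVO versus Untreated and RVO versus Control, from edgeR; filled points have an adjusted p under 0.01. Values reach from -2.27 for Cngb3 to 1.88 for Gnb3 in RVO versus Untreated, and all points of RVO versus Control are open.

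Because the genes moved apart, ratios of RNA counts between subunits of a complex differed between groups. Counts came from whole retina, in which ON bipolar cells also use Gnb3, and the balance of subunits in the complexes was not measured. These ratios of counts were chosen after their values were seen and are given without a test. Gnb3 per Gnat2 was 1.35 ± 0.0166 in Untreated, 6.25 ± 1.52 in Control and 17.6 ± 5.84 in RVO eyes (mean ± SD, n = 3). Cngb3 per Cnga3 was 2.05 ± 0.0249, 1.04 ± 0.0124 and 0.606 ± 0.0659 in the same order, with no overlap between the groups. Gngt2 per Gnat2 was 0.391 ± 0.0413, 0.485 ± 0.0337 and 0.629 ± 0.0666; this order rests on uncorrected counts, since Gngt2 fell more than Gnat2 in Control versus Untreated once GC content and length trends were removed (-0.72 against -0.59). Pde6h per Pde6c was 0.71 ± 0.145, 1.39 ± 0.143 and 1.1 ± 0.0544, highest in Control eyes. The sizes of all these ratios rest on uncorrected counts. With GC content and length trends removed, Cngb3 and Cnga3 had log2 fold changes of -1.80 and -0.78 in RVO versus Untreated. In the main fit these were -2.27 and -0.52. Those of Gnb3 and Gnat2 were 1.24 and -1.71 with the trends removed, beside 1.88 and -1.74 in the main fit.

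The summed level of the 10 genes changed little, at 2025 ± 48.0 normalised CPM in Untreated, 2151 ± 53.0 in Control and 1881 ± 78.8 in RVO eyes, since the higher Gnb3 offset the other genes. Without Gnb3 the sum of the other 9 was 1687 ± 42.4, 1189 ± 146 and 666 ± 145 (SD, n = 3). Gnb3 made up 16.7% ± 0.129, 44.8% ± 6.07 and 64.6% ± 7.68 of the sum of all 10, and the opsins together 37.3% ± 0.697, 23.8% ± 3.10 and 11.7% ± 4.42. These sums and shares are of reads, not corrected for gene length, and are not shares of transcripts.

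Levels can be compared between genes only per length, here as normalised CPM per kb of annotated exon. In Untreated eyes the order was Opn1sw at 217 ± 9.71, Opn1mw at 129 ± 8.25, Gnb3 at 129 ± 2.13, Arr3 at 108 ± 0.802, Gnat2 at 83.5 ± 1.95, Pde6c at 53.2 ± 4.75, Gngt2 at 52.1 ± 5.70, Pde6h at 14.1 ± 1.70, Cngb3 at 8.53 ± 0.382 and Cnga3 at 4.94 ± 0.165 CPM per kb. The samples of Opn1mw and Gnb3 overlapped, as did those of Pde6c and Gngt2, and no other neighbours did. In Control eyes Gnb3 led at 365 ± 46.0 CPM per kb before Opn1sw at 152 ± 25.4, and Cngb3 at 3.71 ± 0.150 had become the lowest, under Cnga3 at 4.24 ± 0.219. In RVO eyes Gnb3 was at 462 ± 58.0 CPM per kb, and Opn1sw at 56.8 ± 25.2, Opn1mw at 48.1 ± 12.0 and Pde6c at 40.0 ± 2.59 followed with overlaps between neighbours. Gnat2, Gngt2 and Arr3 were then alike at 24.5 ± 6.57, 24.2 ± 4.00 and 24.1 ± 9.25 CPM per kb, and their samples overlapped. Annotated exons of Pde6h cover 7846 bases, the most of the 10 genes, and its level per kb rests on that length.

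Cone arrestin and the subunits of cone transducin, phosphodiesterase and channel have counterparts in the rod cascade. All 9 rod counterparts compared fell in RVO versus Untreated (median log2 fold change -0.90), 7 fell in Control versus Untreated (median -0.55), and 2, Sag and Pde6b, fell in RVO versus Control (median -0.45), calls that were lost with the replicate block and in 5 of the 6 fits with a sample left out. The shares of all genes tested that fell in these comparisons were 24.6%, 25.2% and 0.634%. At 0.05, 6 of the 9 rod counterparts were lower and 0 higher in RVO versus Control, beside 17.1% and 17.5% of all genes. The ratio of counts of a cone gene to its rod counterpart was compared in 9 pairs, in which the smallest possible p was 0.1 (two-sided exact permutation test) and no adjusted p could pass 0.05. In RVO versus Untreated, 3 ratios were lower and 6 higher, each without overlap between groups and with a Benjamini-Hochberg adjusted exact p of 0.1.

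The cone gene was lower relative to its rod counterpart for Cngb3 to Cngb1 (difference in mean log2 ratio -1.75, SE 0.26), Arr3 to Sag (-1.32, SE 0.29) and Gnat2 to Gnat1 (-0.56, SE 0.19) in RVO versus Untreated eyes. It was higher for Gnb3 to Gnb1 (2.99, SE 0.18), Pde6h to Pde6g (0.76, SE 0.072), Pde6c to Pde6b (0.71, SE 0.095), Gngt2 to Gngt1 (0.57, SE 0.12), Cnga3 to Cnga1 (0.36, SE 0.17) and Pde6c to Pde6a (0.27, SE 0.061). In these counts Gngt2 and Pde6c, which fell in RVO eyes, were higher relative to their rod counterparts. The ratios are not corrected for GC content and gene length, and corrected values were not obtained for the rod genes. With these trends removed, the log2 fold change of Gngt2 in RVO versus Untreated went from -1.08 to -1.58. That of Pde6c went from -0.38 to -0.37. Gnb1 is used by many cell types and not by rods alone.

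In Control versus Untreated, 4 ratios were higher, 2 lower and 3 overlapped. The lower ones were Cngb3 to Cngb1 (-0.83, SE 0.073) and Arr3 to Sag (-0.60, SE 0.25). In RVO versus Control, 3 were higher, 2 lower and 4 overlapped, and the lower ones were Cngb3 to Cngb1 (-0.91, SE 0.25) and Gnat2 to Gnat1 (-0.67, SE 0.18). The lowest adjusted exact permutation p of these families was 0.15 and 0.18.

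**Figure D3:**
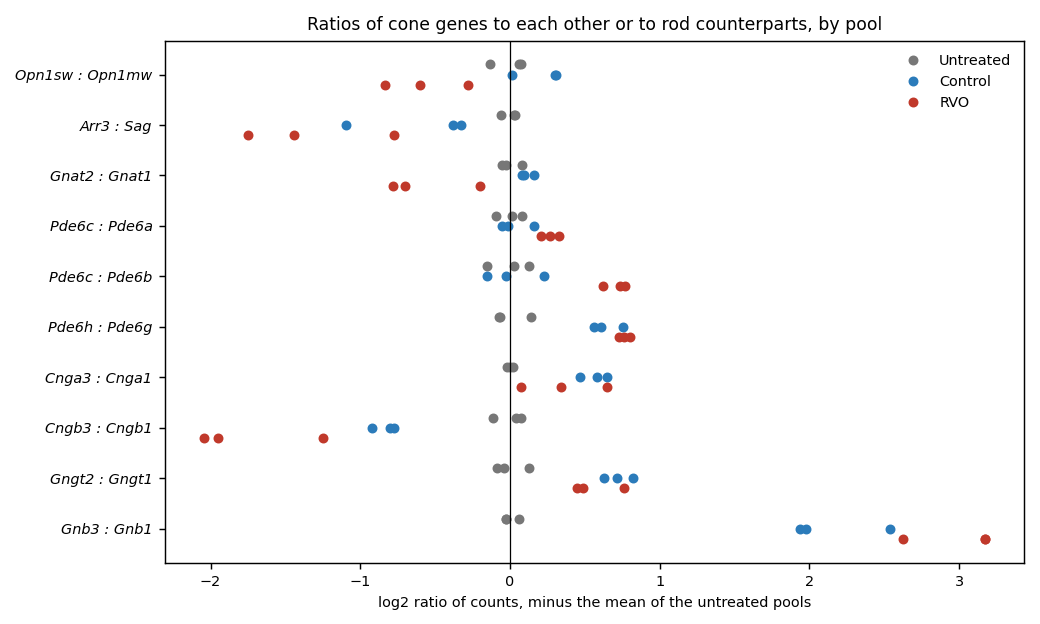
Log2 ratio of counts in each pool, minus the mean of the Untreated pools (x axis), for Opn1sw to Opn1mw and for the 9 pairs of a cone gene and its rod counterpart (rows); each point is a pool of the Untreated, Control or RVO group. RVO points of Arr3, Gnat2 and Cngb3 lie below the Untreated points and those of the other cone to rod pairs above them, farthest for Gnb3 to Gnb1 (mean difference 2.99).

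Of 16 regulators of the cascade known from rods, cones or both, 14 fell and 1 rose in RVO versus Untreated (median log2 fold change -0.69), 11 fell and 2 rose in Control versus Untreated (median -0.45), and 1 fell in RVO versus Control (median -0.31). Over all genes tested, 24.6% fell and 27.4% rose in RVO versus Untreated and 25.2% fell and 27.2% rose in Control versus Untreated. In RVO versus Control, 0.634% of all genes fell. At 0.05, 10 of the 16 regulators were lower and 1 higher there, beside 17.1% and 17.5% of all genes. Pdc, phosducin, which binds transducin beta and gamma subunits, fell by 1.85 on the log2 scale in RVO and by 1.25 in Control versus Untreated eyes. Gucy2f, a guanylate cyclase that restores cGMP, fell by 1.56 and by 1.10, and Guca1a, a calcium-dependent activator of such cyclases, fell by 1.39 and by 0.77. Guca1a was also the regulator called in RVO versus Control (log2 fold change -0.62, edgeR adjusted p = 0.00928), and was lost in the same fits as Sag and Pde6b. Slc24a2, the cone exchanger of sodium, calcium and potassium, fell by 1.49 in RVO and by 0.71 in Control versus Untreated. Aipl1, a chaperone of phosphodiesterase, rose in both (0.85 and 0.54).

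Of 5 other cone markers that passed the filter, 3 fell and 0 rose in RVO versus Untreated, and 2 fell and 1 rose in Control versus Untreated. The shares over all genes tested were 24.6% and 27.4% in RVO and 25.2% and 27.2% in Control versus Untreated. Kcne2, a potassium channel subunit, had the largest change of these markers, 7.35-fold lower in RVO (log2 fold change -2.88, SE 0.29, edgeR adjusted p = 8.79e-05) and 2.50-fold lower in Control eyes (-1.32, edgeR adjusted p = 1.68e-06). Ccdc136 fell by 1.45 and by 0.64. Fam19a3 fell by 1.28 in RVO versus Untreated and was at -0.10 in Control versus Untreated (edgeR adjusted p = 0.11). Otop3 rose in Control versus Untreated (0.87, edgeR adjusted p = 0.000189).

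Of 12 transcription factors of photoreceptor development and identity, 10 fell and 0 rose in RVO versus Untreated (median log2 fold change -0.84), 8 fell and 0 rose in Control versus Untreated (median -0.50), and 0 were called in RVO versus Control by edgeR at 0.01, where 3 were lower and 1 higher at 0.05. The shares over all genes tested were 24.6% and 27.4%, 25.2% and 27.2%, and, at 0.05 in RVO versus Control, 17.1% and 17.5%. Thrb, the thyroid hormone receptor that directs the expression of medium-wavelength opsin, fell by 0.96 and by 0.80. Crx, which drives many photoreceptor genes, fell by 0.77 and by 0.58. Rxrg, a partner of Thrb in cones, fell by 0.91 in RVO versus Untreated and was at -0.15 in Control versus Untreated (edgeR adjusted p = 0.311).

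Of 10 outer segment structure genes, 4 fell and 2 rose in RVO and 3 fell and 2 rose in Control versus Untreated, with medians of -0.26 and -0.06. Of 12 genes of the visual cycle, which regenerates the chromophore of the opsins, 4 rose and 4 fell in RVO and 3 rose and 5 fell in Control versus Untreated. Over all genes tested, 27.4% rose and 24.6% fell in RVO and 27.2% rose and 25.2% fell in Control versus Untreated. In both lists 0 genes were called in RVO versus Control by edgeR at 0.01, where at 0.05 the first had 2 lower and 1 higher and the second 0 lower and 2 higher. At 0.05, 17.1% of all genes tested were lower and 17.5% higher.

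**Figure D4:**
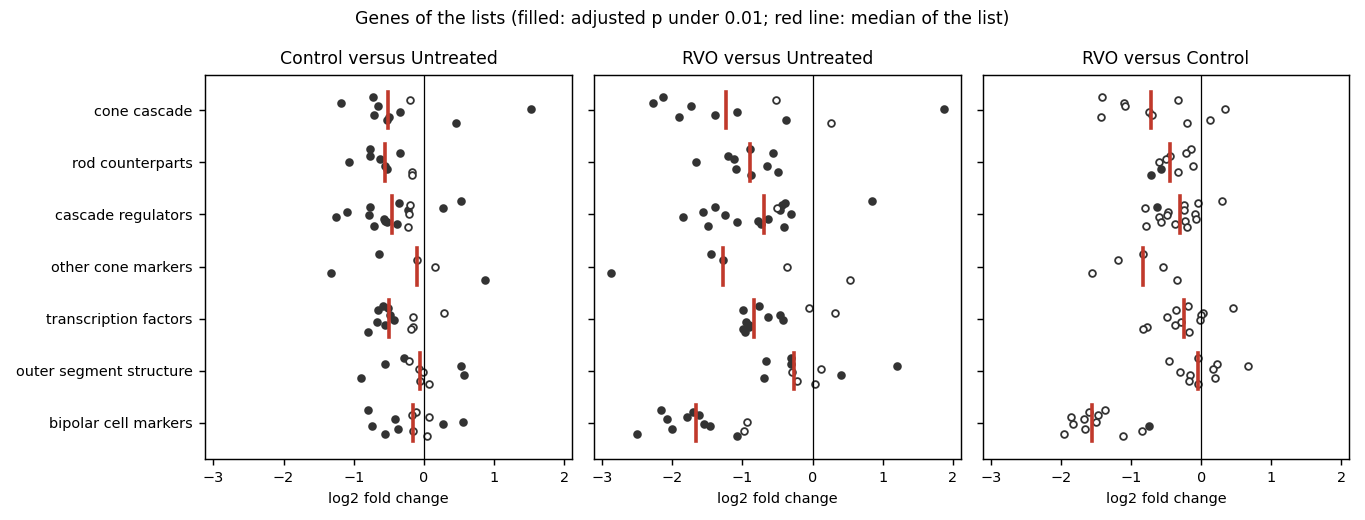
Log2 fold changes (x axis) of the genes of the cone cascade and 6 other lists (rows) in the 3 comparisons (panels); points are genes, filled where the adjusted p was under 0.01, and the red line in each row is the median of the list. The median of the cone cascade is -1.24 in RVO versus Untreated, -0.51 in Control versus Untreated and -0.72 in RVO versus Control.

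Markers of other cells are given for comparison, and their part in the values of the cone genes was not tested. The myeloid, Mueller cell and pigment epithelium lists had 10 genes tested each. Over all genes tested, 27.4% rose and 24.6% fell in RVO and 27.2% rose and 25.2% fell in Control versus Untreated. Summed myeloid markers were 75.16 to 94.8 normalised CPM in Untreated, 97.21 to 120.8 in Control and 169.5 to 191.0 in RVO eyes, and 7 rose and 2 fell in RVO versus Untreated (6 and 2 in Control versus Untreated). Summed Mueller cell markers were 5783 to 6100, 5207 to 5720 and 3890 to 5057, and 2 rose and 4 fell in RVO and 3 rose and 4 fell in Control versus Untreated. Summed pigment epithelium markers were 564.9 to 625.2, 498.6 to 574.3 and 404.9 to 765.4, with overlap between the groups. Of these markers, 1 rose in each comparison with Untreated eyes, while 2 fell in RVO and 4 in Control eyes. Lens markers summed to 3.646 to 29.09 in Untreated, 229.2 to 3240 in Control and 195.7 to 6285 in RVO eyes, with the highest sum in RVO replicate 2, the pool in which 8 cone genes were highest among RVO pools; 5 of 7 lens markers tested rose in RVO and 9 of 9 in Control versus Untreated. The defining markers of cones were present in every sample, and no gene of any list was at 0 in all samples.

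Exons of 3 cone genes overlap a gene on the opposite strand, and although the libraries marked the strand, the strand setting of the counting is not given in the sources used here. Opn1sw shares 397 exon bases (15.5% of its exons) with Calu, which had 240 ± 6.28, 203 ± 4.84 and 265 ± 32 normalised CPM in Untreated, Control and RVO eyes. Gngt2 shares 234 bases (12.5%) with Abi3, which was at 1.38, 1.48 and 1.27, and Pde6h shares 136 bases (1.73%) with Arhgdib, at 8.20, 9.08 and 9.44. Calu had a log2 fold change of 0.18 (edgeR adjusted p = 0.128) in RVO versus Untreated, where Opn1sw had -1.90, and fell by 0.22 in Control versus Untreated (edgeR adjusted p = 0.00263), where Opn1sw had -0.49. Abi3 and Arhgdib were called in none of the 3 comparisons.

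Profiles of the cone genes over the 9 samples were compared with those of 10524 other genes with a mean of at least 10 CPM by the root mean square difference of centred log2 normalised CPM. The nearest to Opn1sw were Cpne9 (0.163), Rph3a (0.183) and Stum (0.187), while the nearest member, Arr3, was at 0.164. The nearest to Opn1mw were Pde10a (0.0597), Reck (0.0615) and Gm10419 (0.0839), with Gnat2 as the nearest member at 0.186. Nearest to the mean profile of the 10 genes were Rnf144a (0.0567), Syn1 (0.0697) and Dnajc6 (0.0708). These are descriptions over 9 samples in 3 groups, and the order among such small differences was not tested.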

How the data were processed

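RNA of 9 pools of 6 mouse retinas was sequenced from strand-specific poly-A libraries. The authors aligned the reads with STAR 2.5.2b using the Gencode vM11 annotation, counted them per gene with featureCounts (Subread 1.5.1) and deposited raw counts per gene symbol. The build was GRCm38. The handling of reads that match several genes is not given in the sources used here. Of 48679 listed names, 92 were spike-ins with 0 counts and were left out.

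Each pair of groups was fitted on its own with edgeR 4.0.16 in R 4.3.3 (filterByExpr, TMM factors of 0.8896 to 1.083, quasi-likelihood test), with Benjamini-Hochberg adjustment over all genes tested. The biological coefficient of variation was 13.8% in RVO versus Untreated, 7.49% in Control versus Untreated and 14.4% in RVO versus Control. Replicates differed by more than sampling noise (chi-square per degree of freedom of 3.34 to 59.5). Ratios of counts within a sample were compared on the log2 scale by exact permutation tests in SciPy 1.17.1. DESeq2 1.42.0 was an alternative test. The fit was checked on simulated counts. Exon lengths and coordinates were from GENCODE vM21 (GRCm38) and promoters from RefSeq.

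The 10 genes, the lists and the alternatives were chosen with earlier results of these data known. Named were all 10 genes, their rod counterparts, members of the lists (cascade regulators, other cone markers, transcription factors, outer segment structure, visual cycle, and markers of bipolar, Mueller, myeloid, pigment epithelium and lens cells) and the 3 genes nearest in profile; Calu, Abi3 and Arhgdib were named for their overlap. The alternatives were other normalisations, filters and thresholds, a joint fit of the 9 samples, a block for the replicate number, removal of trends with GC content and length, and each sample left out in turn. A gene is not reported here, which left 9 pairs of cone and rod genes for adjustment.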

Additional observations from a re-analysis of the deposited data

How the results depend on the processing

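No log2 fold change of the 10 cone genes turned its direction under any alternative fit. In RVO versus Control, 0 cone genes were called at an adjusted p under 0.01, and this count depended on the setting. It was 3 with scaling by total counts and 3 with trends of GC content and length removed, 6 with DESeq2, 6 without a filter on low counts, 6 in a fit of all 9 samples and 6 at a threshold of 0.05. When each sample was left out in turn it was between 0 and 8, and the 8 came without RVO replicate 2. The threshold was crossed by values near 0.01, since edgeR adjusted p were 0.0103 for Gnat2, 0.0105 for Cngb3 and 0.0109 for Gngt2. With the replicate number as a block, 0 cone genes were called in RVO versus Control, 9 in RVO versus Untreated and 9 in Control versus Untreated, against 0, 8 and 9 without the block. In RVO versus Control the block left 0 of all 16874 genes called, against 563 without it; 0 of all genes were called also without RVO replicate 3, Control replicate 2 or Control replicate 3, 1 without Control replicate 1 and 29 without RVO replicate 1. The replicate numbers were not taken to pair the samples, because the sources used here do not say which mice contributed to which pool. Deviations of samples of the same number correlated between -0.19 and 0.12 over all comparisons, and not every sample matched its own number best. With 3 pools per group these correlations cannot decide whether pools were paired. RVO and Control eyes were fellow eyes, and the main test of RVO versus Control treated their pools as independent. The count in RVO versus Untreated was between 7 and 10 and that in Control versus Untreated between 6 and 10 over all alternatives. In Control versus Untreated, the log2 ratio of Pde6c to Pde6a, 0.03 in all samples, was between -0.0331 and 0.0739 when a sample was left out, and that of Pde6c to Pde6b, 0.01 in all samples, was between -0.0906 and 0.101; both were below 0 without Control replicate 2 (-0.0331 and -0.0906) or Untreated replicate 3 (-0.0138 and -0.0624). Among the cone to rod ratios and the ratio of the opsins, no other turned its direction with a sample left out, with 0.5 count added or with the replicate block. The ratios of counts between subunits of a complex were not recomputed. The cause of these changes was not tested.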
